A study of Mus musculus with 6 samples.

Results

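The 10 genes described here, Nr4a1, Ace, Treml4, Pou2f2, Spn, Eno3, Ear2, Cd300e, Pglyrp1 and Gngt2, are known from nonclassical (Ly6C-low) monocytes. They were chosen by symbol, and each matched 1 row among the 55487 genes of the deposited count table. Of the 10, 8 passed the filter on low counts, while Ace and Ear2 did not. The libraries came from macrophages that were cultured for 7 days in CSF-1, a cytokine of the macrophage lineage, from 2 kinds of cell sorted from mouse bone marrow. One group started from TpMos and the other from mature Ly6Chi monocytes, the classical subset, with 3 libraries each. The comparison asks how the macrophages that the 2 starting cells give rise to differ. Both groups shared the medium, and the strain, age, genotype and CSF-1 concentration of each sample are not given in the sources used here.

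Classical monocytes that stay in the circulation can convert into Ly6C-low cells, which crawl along the endothelium of small vessels and clear debris from it. The conversion and the survival of the resulting cells depend on the orphan nuclear receptor NR4A1, and C/EBP beta, KLF2 and Notch2 signalling act in the same switch. Ly6C-low monocytes are recognised by surface CD43 (encoded by Spn), TREML4, CD300e and angiotensin-converting enzyme (Ace), and by the octamer-binding factor OCT2 (Pou2f2). CSF-1 is also the survival factor of these monocytes, but the cultures compared here gave macrophages, in which the same genes were read.

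The libraries held 23765773 to 33042094 counts on genes. All 9 macrophage markers examined were detected, among them Adgre1, Csf1r and Cd68, and their summed level was 35648 to 38224 CPM (library-scaled counts) in TpMo-derived and 28947 to 32008 CPM in Ly6Chi-derived libraries. Most of that sum was Lyz2, at 25681 against 23319 CPM. By the edgeR test described below, 5 of the 9 were higher in TpMo-derived macrophages and 1 lower, against 6.54% and 5.79% of all genes tested. C1qa, Fcgr1, Adgre1, Cd14 and Csf1r had log2 fold changes of 3.17, 1.96, 1.20, 0.75 and 0.51, and Itgam of -0.31. Of 8 lymphocyte and NK cell markers, 6 had no count, as did 4 of 6 dendritic cell, 4 of 6 erythroid and platelet, and 3 of 5 stromal and endothelial markers. The exceptions above 5 CPM in these lists and those of granulocytes were Pf4, Csf3r, Ccr3 and, in 1 Ly6Chi-derived library, Siglecf. Below that level, Pecam1 of the stromal and endothelial list held 38, 21 and 16 counts in TpMo-derived and 0, 0 and 2 in Ly6Chi-derived libraries. It was called higher in TpMo-derived libraries (log2 fold change 5.06 ± 1.35 SE, edgeR adjusted p = 0.0356). The summed erythroid and platelet level, nearly all of it Pf4, was 117 to 246 CPM in TpMo-derived and at most 44.5 CPM in Ly6Chi-derived libraries. The part of other cell types in the results was not tested. Of the 3 TpMo-derived libraries, replicate 2 lay nearest the Ly6Chi-derived mean for 48.0% of the changed genes. In bulk RNA, fewer cells that express a gene and less of its RNA per cell cannot be told apart.

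The surface receptor genes Treml4, Cd300e and Spn were lower in TpMo-derived than in Ly6Chi-derived macrophages, while Pou2f2, a transcription factor of the same cells, was higher. Spn, Cd300e and Treml4 fell, with log2 fold changes of -1.76, -1.66 and -1.44, and Pou2f2 rose by 1.67. Nr4a1, Eno3, Pglyrp1 and Gngt2 did not pass the test (quasi-likelihood test of edgeR, p adjusted after Benjamini and Hochberg, threshold 0.05). That is 1 higher and 3 lower of the 8 tested, where 6.54% of all 13140 genes tested were called higher, 5.79% lower and 12.3% in either direction. All 3 libraries of one group lay apart from all 3 of the other for 5 of the 8, against 30.5% of all genes tested. TpMo-derived libraries were above for Pou2f2 (15.3% of all genes) and below for Treml4, Spn, Cd300e and Gngt2 (15.2%). The median log2 fold change of the 8 was -0.37, against 0.0054 over all genes tested. Genes of the 10 that were low in both groups could not enter these counts, and a p that missed the threshold does not show that the groups were alike.

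**Figure D1:**
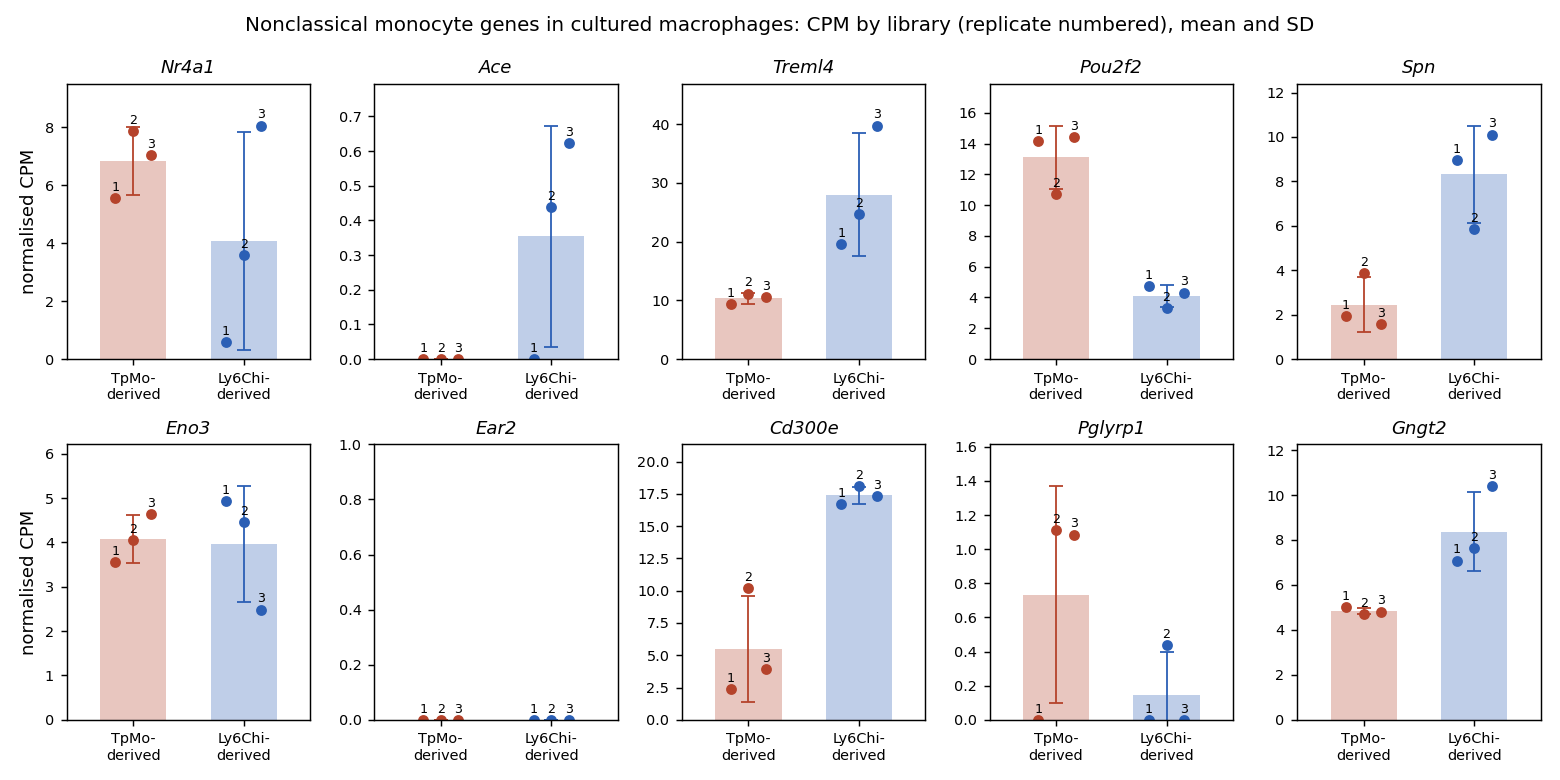
Normalised CPM of the 10 genes in each library, with 1 panel and 1 linear axis per gene. Points are libraries with their replicate number, bars are means and whiskers SD over 3 libraries. Pou2f2 was above, and Treml4, Spn, Cd300e and Gngt2 were below, in all TpMo-derived libraries, and Ear2 was at 0 throughout.

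Treml4 (ENSMUSG00000051682.15, chromosome 17, 48264295 to 48275360 on GRCm38) encodes a receptor of the TREM family that binds dying cells and amplifies signalling through TLR7. It stood at 9.33, 11.1 and 10.5 CPM in TpMo-derived replicates 1 to 3 and at 19.5, 24.7 and 39.8 CPM in Ly6Chi-derived replicates 1 to 3. The TpMo-derived values were tight, whereas Ly6Chi-derived replicate 3 was well above its fellows, and the groups did not overlap. The log2 fold change was -1.44 ± 0.27 (SE, adjusted p = 0.00624 by edgeR), or 2.71-fold higher in Ly6Chi-derived macrophages. The call held in every alternative analysis run, with log2 fold changes from -1.65 to -1.10.

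Cd300e (ENSMUSG00000048498.7, chromosome 11, 115051917 to 115062177) encodes an activating receptor of the CD300 family. Its levels were 2.39, 10.2 and 3.91 CPM in TpMo-derived and 16.7, 18.1 and 17.3 CPM in Ly6Chi-derived libraries. Here the Ly6Chi-derived values were tight, and TpMo-derived replicate 2 stood between its own group and the other. The log2 fold change of -1.66 ± 0.45 (SE, edgeR adjusted p = 0.0367) became -2.47 (adjusted p = 0.00112) without that library. The call was lost when any other single library was left out, with adjusted p from 0.0761 to 0.143.

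Spn (ENSMUSG00000051457.7, chromosome 7, 127132232 to 127137823) encodes CD43, a heavily sialylated mucin that is used beside Ly6C to tell monocyte subsets apart. It stood at 1.93, 3.86 and 1.56 CPM in TpMo-derived and at 8.97, 5.86 and 10.1 CPM in Ly6Chi-derived libraries. TpMo-derived replicate 2 was again the highest of its group, but the groups did not overlap. This gave a log2 fold change of -1.76 ± 0.42 (SE, edgeR adjusted p = 0.0213), or 3.38-fold higher in Ly6Chi-derived macrophages. Leaving out TpMo-derived replicate 1 or 3, or Ly6Chi-derived replicate 1 or 3, ended the call with adjusted p from 0.0755 to 0.0905.

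Ace (ENSMUSG00000020681.14, chromosome 11, 105967945 to 105989964) encodes angiotensin-converting enzyme, a peptidase of the cell surface. No count was found in any TpMo-derived library, and the Ly6Chi-derived libraries held 0, 12 and 20 counts. If every count were independent, a count of 0 would allow up to 3 counts, or 0.0921 to 0.130 CPM in the 3 TpMo-derived libraries. The mates of a pair were counted separately by default, so the limit is higher than that, and it covers counting error only. Since 1 Ly6Chi-derived library was also at 0, the groups overlapped, and the gene was too low to test. Of the other angiotensin system genes reported here, the prorenin receptor Atp6ap2 had counts, at 498 against 563 CPM without passing, while Agt, Ren1, Agtr1a, Agtr2 and Mme had none. No gene of this list passed edgeR, DESeq2 or limma-voom, with 1 of 1 tested lower at an unadjusted p under 0.05 and in 1 of 16 alternatives (library sizes alone).

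Pou2f2 (ENSMUSG00000008496.19, chromosome 7, 25087344 to 25179726) encodes OCT2, which binds the octamer element and is best known from B cells. It was the called member that ran against the others, at 14.2, 10.7 and 14.4 CPM in TpMo-derived and 4.72, 3.33 and 4.32 CPM in Ly6Chi-derived libraries. Every TpMo-derived library was above every Ly6Chi-derived one by more than the spread within either group. The log2 difference was 1.67 ± 0.27 (SE, adjusted p = 0.00294 by edgeR), or 3.17-fold, and lay between 1.52 and 1.79 with the call kept in all alternatives run. Pou2f1, the widely expressed OCT1 gene, stood at 13.4, 11.8 and 7.77 CPM against 8.32, 7.54 and 8.74 CPM without a call, and Pou2f3 and the OCT coactivator gene Pou2af1 had no count. The B cell marker Cd79a had no count in any library, and Ms4a1 had 4 counts, all in TpMo-derived libraries. No gene of the octamer list beside Pou2f2 passed edgeR, DESeq2 or limma-voom, and 0 of 1 tested had an unadjusted p under 0.05.

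Nr4a1 (ENSMUSG00000023034.7, chromosome 15, 101254269 to 101274795), the nuclear receptor on which Ly6C-low monocytes depend, is also an immediate early gene that responds to stimuli within minutes. It stood at 5.56, 7.87 and 7.03 CPM in TpMo-derived and at 0.581, 3.59 and 8.05 CPM in Ly6Chi-derived libraries. The Ly6Chi-derived values spanned more than the whole TpMo-derived range, so that the groups overlapped. With a log2 fold change of 0.74 ± 0.67 (SE, edgeR adjusted p = 0.585), the estimate ranged from 0.22 without Ly6Chi-derived replicate 1 to 1.71 without Ly6Chi-derived replicate 3. The direction for Nr4a1 was thus not resolved by these libraries.

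Immediate early genes were examined beside it. Of 15 tested, 5 rose and 1 fell (DESeq2 7 and 1, limma-voom 5 and 1), with a median log2 fold change of 0.50. Over all genes tested, edgeR called 6.54% higher and 5.79% lower. Fos rose to 266 ± 43.2 CPM from 130 ± 35.4 CPM, and Zfp36, which encodes an mRNA-destabilising protein, to 145 ± 13.4 CPM from 49.1 ± 6.18 CPM. Junb, Egr1 and Ier2 rose by 0.50, 1.74 and 0.83 on the log2 scale, and Egr2, a zinc finger factor, fell by 1.24. Dusp1, Atf3 and Jun, those of highest CPM without a call, had log2 fold changes of 0.01, 0.15 and 0.08. Leaving out Ly6Chi-derived replicate 1 or 2 ended the calls of Egr1 (0.0597 and 0.0598) and Ier2 (0.0850 and 0.0944, adjusted p). With no filter on low counts Egr1 had an adjusted p of 0.181, and Ier2 had 0.104 when TpMo-derived replicate 3 was left out. Ly6Chi-derived replicate 1, in which Nr4a1 was lowest, held the lowest value of its group for 10 of these 15 genes, or 66.7%, against 34.4% of all genes tested. The part that harvest or handling plays in these levels was not tested. Of the close relatives, Nr4a2 was not called at 1.16 against 0.418 CPM, and Nr4a3 had no count.

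The promoter stretches of the genes whose values are described most closely above are shown for reference, as the 250 bases before the RefSeq start site on GRCm38.p6, 5′ to 3′ on the strand of the gene. They are Treml4 (chr17:48264045-48264294, plus strand), Cd300e (chr11:115062040-115062289, minus strand), Spn (chr7:127137824-127138073, minus strand), Pou2f2 (chr7:25132461-25132710, minus strand) and Nr4a1 (chr15:101266596-101266845, plus strand). The RefSeq starts of Nr4a1, Pou2f2 and Cd300e lie inside the counted spans. Capitals mark the motif matches described after them.
Treml4: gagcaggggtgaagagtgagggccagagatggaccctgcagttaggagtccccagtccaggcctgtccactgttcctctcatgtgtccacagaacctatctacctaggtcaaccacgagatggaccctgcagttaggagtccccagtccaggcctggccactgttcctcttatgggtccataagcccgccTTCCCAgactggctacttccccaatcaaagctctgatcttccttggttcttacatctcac
Cd300e: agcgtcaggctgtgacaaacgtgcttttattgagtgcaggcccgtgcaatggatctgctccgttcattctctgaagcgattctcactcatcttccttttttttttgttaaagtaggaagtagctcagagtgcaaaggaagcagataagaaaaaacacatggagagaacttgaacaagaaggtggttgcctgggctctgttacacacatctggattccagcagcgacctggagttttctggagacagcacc
Spn: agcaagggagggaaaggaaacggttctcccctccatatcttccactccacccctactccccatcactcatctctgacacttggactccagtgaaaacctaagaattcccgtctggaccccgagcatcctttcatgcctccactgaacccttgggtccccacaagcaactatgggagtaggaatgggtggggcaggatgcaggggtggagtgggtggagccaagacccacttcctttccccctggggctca
Pou2f2: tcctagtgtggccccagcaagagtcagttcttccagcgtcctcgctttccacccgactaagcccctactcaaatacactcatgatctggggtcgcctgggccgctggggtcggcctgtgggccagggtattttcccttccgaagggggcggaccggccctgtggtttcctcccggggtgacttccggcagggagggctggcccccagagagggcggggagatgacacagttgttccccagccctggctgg
Nr4a1: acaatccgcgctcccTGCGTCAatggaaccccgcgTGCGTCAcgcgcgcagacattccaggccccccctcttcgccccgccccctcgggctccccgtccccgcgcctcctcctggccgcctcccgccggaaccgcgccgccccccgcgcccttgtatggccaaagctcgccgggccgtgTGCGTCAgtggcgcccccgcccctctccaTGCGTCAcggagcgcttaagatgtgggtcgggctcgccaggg

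A total of 9 motifs were searched on both strands in these windows, of which 9 of the 10 genes had an entry. The element bound by NR4A1 itself (AAAGGTCA), the octamer (ATGCAAAT), the cyclic AMP element (TGACGTCA), the AP-1 element (TGANTCA) and the interferon-stimulated response element (GAAA, any 2 bases, GAAA) had no match in any of the 9. They occur in 439, 526, 508, 2217 and 978 of the 32851 promoter windows in the table. The ETS-type string GAGGAAG (in 10.6% of all windows) was present upstream of Ace and Pglyrp1, and a C/EBP element (TTGCNNAA, 9.56%) upstream of Ear2. Shorter or other ETS strings were not searched. The core read by the Notch effector RBPJ (TGGGAA, 21.6%) was present on the reverse strand 60 to 55 bases before the start of Treml4, and also upstream of Eno3. In the Nr4a1 window the variant element TGCGTCA, added to the search after the sequence had been seen, occurred in 4 copies, which began 235, 215, 71 and 42 bases before the start. It was present in 1.75% of all windows, and the Nr4a1 window was the 1 window with 4 or more copies. A match of letters is a description and not a binding site, and where no match was found only these letters in this window are meant.

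Gngt2 (ENSMUSG00000038811.13, chromosome 11, 95837216 to 95845734) encodes a gamma subunit of G proteins that is best known from cone photoreceptors. It stood at 5.00, 4.72 and 4.82 CPM in TpMo-derived and at 7.08, 7.65 and 10.4 CPM in Ly6Chi-derived libraries. The groups did not overlap, and Ly6Chi-derived replicate 3 stood highest. The log2 fold change of -0.79 ± 0.28 (SE) nevertheless missed the threshold (edgeR adjusted p = 0.107), with adjusted p from 0.0545 with DESeq2 to 0.332 without Ly6Chi-derived replicate 3. Of its exon bases, 12.5% overlap Abi3 on the other strand, and reads on both genes were not counted. Among 8 other gamma subunit genes tested, 0 passed edgeR, DESeq2 or limma-voom, with 1 higher and 0 lower at an unadjusted p under 0.05. Those of highest CPM were Gng12, Gng2 and Gng5, at 161, 49.5 and 24.3 CPM in TpMo-derived and 139, 56.7 and 21.6 CPM in Ly6Chi-derived libraries.

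Eno3 (ENSMUSG00000060600.15, chromosome 11, 70657202 to 70662513) encodes the muscle-type enolase of glycolysis. It stood at 3.56, 4.05 and 4.64 CPM in TpMo-derived and 4.94, 4.47 and 2.49 CPM in Ly6Chi-derived libraries, and these ranges overlapped. Its log2 fold change was 0.04 ± 0.39 (SE, edgeR adjusted p = 0.970), and its sign changed among the alternatives, which spanned -0.21 to 0.23. Eno1, the general enolase gene, was far more abundant per length (1545 and 1434 TPM) and was slightly higher, at 2510 ± 115 CPM against 2227 ± 39.7 CPM. That call (adjusted p = 0.0485) was lost with every other scaling, without a count filter, and whichever library was left out. Of the 6 enolase and neighbouring glycolysis genes tested, 1 rose and 1 fell, against 6.54% and 5.79% of all genes tested. Eno1b and Eno2 stood at 2.38 and 3.39 CPM against 2.67 and 3.67 CPM with no call, and Eno4 was too low to test. Pgam1, the phosphoglycerate mutase just before enolase in the pathway, fell by 0.29 on the log2 scale (adjusted p = 0.0268, a call lost without TpMo-derived replicate 1 or 3 or any Ly6Chi-derived replicate). Pkm, the pyruvate kinase just after it, was not called at 3821 against 3498 CPM.

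Pglyrp1 (ENSMUSG00000030413.7, chromosome 7, 18871331 to 18890459) encodes a secreted peptidoglycan-binding protein that neutrophils store in their granules. TpMo-derived libraries held 0, 30 and 25 counts and Ly6Chi-derived libraries 0, 12 and 0, so that both groups mixed libraries with and without reads. The log2 fold change of 2.30 ± 1.80 (SE, edgeR adjusted p = 0.511) went to 7.38 without Ly6Chi-derived replicate 2, which held all of that group's reads, and carries no size. The granule gene Ltf stood at 0, 2.15 and 1.65 CPM in TpMo-derived and 0.145, 0 and 0 CPM in Ly6Chi-derived libraries. Other low neutrophil markers went either way. Ngp, Camp and S100a9 held 40, 2 and 2 counts in TpMo-derived and 19, 0 and 0 in Ly6Chi-derived libraries. S100a8, Elane and Cxcr2 held 14, 0 and 0 counts in TpMo-derived and 38, 8 and 2 in Ly6Chi-derived libraries. Of 10 neutrophil markers, 2 had no count (Mpo and Retnlg), and the summed level, nearly all of it Csf3r, was 36.6 to 42.2 CPM in TpMo-derived and 25.9 to 31.8 CPM in Ly6Chi-derived libraries. The part of such cells in the Pglyrp1 reads was not tested. Pglyrp2, Pglyrp3 and Pglyrp4 had no count.

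Ear2 (ENSMUSG00000072596.4, chromosome 14, 44102654 to 44103534) encodes an eosinophil-associated ribonuclease that Ly6C-low monocytes also make. All 6 libraries were at 0, which would allow up to 3 counts, or 0.0921 to 0.130 CPM, per library if every count were independent. As for Ace, the limit is higher because mates were counted separately. Ear2 has near-identical copies, and 59.3% of the 51-base windows of its transcripts (the length of 1 read) occur in no other gene, against 93.95 to 100% for the other 9 genes. Reads from the shared windows would have been left out, so that the limit above holds for the rest. Ear1, Ear6, Ear10, Ear14 and Rnase2a were at 0 as well. Rnase2b held 4 counts in TpMo-derived and 14 in Ly6Chi-derived libraries in all and was too low to test. Among more distant ribonucleases, Rnase4 fell by 0.39 on the log2 scale (adjusted p = 0.0414), a call lost without TpMo-derived replicate 1 or 3 or any Ly6Chi-derived replicate, and Ang did not pass, at 4.05 against 7.12 CPM. That is 1 lower and 0 higher of 2 tested, also with DESeq2 and limma-voom, against 5.79% and 6.54% of all genes tested by edgeR. At an unadjusted p under 0.05, 2 were lower and 0 higher. Rnase4 and Ang share exon bases, where reads were not counted. Of 6 eosinophil markers, Epx and Il5ra were at 0 and Prg2 had 6 counts in all. Their summed level, led by the chemokine receptor Ccr3, was 58.7 to 75.8 CPM in TpMo-derived and 15.7 to 23.1 CPM in Ly6Chi-derived libraries. Siglecf ran the other way, at 2.07 against 3.95 CPM without passing, and Alox15 had 8 counts, all in TpMo-derived replicate 3.

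Between genes, levels were compared as TPM, in which counts are scaled by exon length. In Ly6Chi-derived macrophages the order was Treml4 (48.3 ± 17.3 TPM), Cd300e (28.8 ± 0.749), Gngt2 (15.4 ± 2.98), Eno3 (7.92 ± 2.72), Spn (6.15 ± 1.64), Nr4a1 (3.97 ± 3.63) and Pou2f2 (1.74 ± 0.330), each as mean ± SD over 3 libraries. Library ranges of each of the first 3 genes were apart from those of the next, and ranges overlapped between neighbours from Eno3 to Pou2f2. In TpMo-derived macrophages the range was narrower, with Treml4 at 17.1 ± 1.53 TPM, Cd300e at 8.73 ± 6.65, Gngt2 at 8.54 ± 0.309, Eno3 at 7.76 ± 0.916, Nr4a1 at 6.43 ± 1.11 and Pou2f2 at 5.26 ± 0.782. All neighbours in that order overlapped, and Spn followed apart from them at 1.74 ± 0.895 TPM. Pglyrp1 lay at 1.31 and 0.273 TPM and Ace at 0 and 0.228 TPM in TpMo-derived and Ly6Chi-derived libraries. Relative to all genes tested, these were middling to low levels: 70.1% of genes had a lower mean TPM than Treml4, 57.4% than Cd300e, 26.2% than Spn and 24.4% than Pou2f2. Adgre1, the macrophage marker, stood at 4099 and 1872 TPM.

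**Figure D2:**
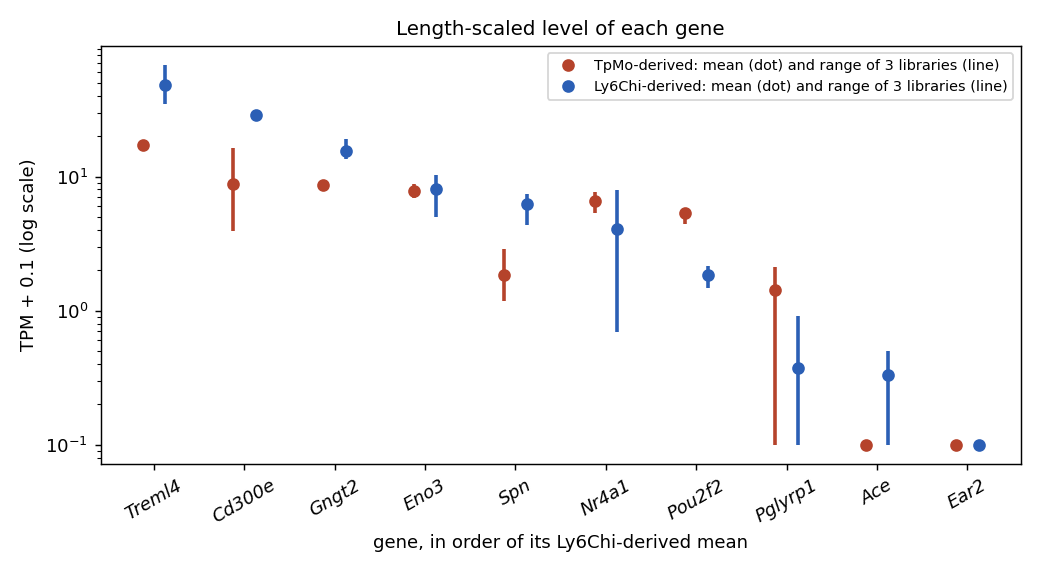
Length-scaled level of the 10 genes, as TPM plus 0.1 on a log axis, in order of the Ly6Chi-derived mean. Dots are group means and lines the range of 3 libraries. Treml4, Cd300e and Gngt2 led in Ly6Chi-derived macrophages, at 48.3, 28.8 and 15.4 TPM, while TpMo-derived levels of the leading 6 genes lay closer together.

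In each group, the library that was highest for the most genes is given here, picked after the values were seen. Whether its count exceeds a random spread was not tested. TpMo-derived replicate 2 held the highest value of its group for Nr4a1, Treml4, Spn, Cd300e and Pglyrp1, or 5 of the 8 genes with reads there, against 33.8% of all genes tested. Ly6Chi-derived replicate 3 held the highest value for Nr4a1, Ace, Treml4, Spn and Gngt2, or 5 of 9, against 33.6%.

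Other genes of Ly6C-low monocytes were lower too, where they passed the threshold. Of 20 listed, 17 were tested, 7 fell and 0 rose, against 5.79% and 6.54% of all genes tested, with a median log2 fold change of -0.47. With DESeq2 9 fell and 0 rose, where 1165 of 15239 genes fell and 1199 rose in all. With limma-voom it was 7 and 0, where 846 of 13140 genes fell and 914 rose. At an unadjusted p under 0.05 10 were lower and 2 higher, a cut-off at which the share of all genes was not counted. Cx3cr1, the fractalkine receptor that marks these cells, stood at 42.8, 59.8 and 49.3 CPM in TpMo-derived and 78.6, 95.8 and 91.3 CPM in Ly6Chi-derived libraries (log2 fold change -0.81 ± 0.14 SE, edgeR adjusted p = 0.00502). Itgal, the alpha chain of the integrin LFA-1 with which they crawl, fell by 0.41 on the log2 scale, from 209 ± 4.15 CPM to 158 ± 6.68 CPM. The integrin Itgax, the adhesion molecule Ceacam1, the tumour necrosis factor receptor Tnfrsf1b and the scavenger receptor Cd36 fell too, with log2 fold changes of -3.08, -1.12, -0.68 and -0.50. Macrophages express these genes as well. Cd9 was lower by a call that was lost without TpMo-derived replicate 1 or 3 or any Ly6Chi-derived replicate (adjusted p = 0.0493, log2 fold change -0.33). Fcgr4, an Fc receptor abundant on these cells, stood at 60.5 ± 6.92 CPM against 47.7 ± 2.22 CPM with the groups apart in the other direction, and did not pass. Dusp5 also lay apart in that direction, at 4.49 ± 0.953 CPM against 2.06 ± 0.562 CPM. Its log2 fold change of 1.12 ± 0.42 (SE, edgeR adjusted p = 0.128) did not pass. Lair1 and Cd274, at 404 and 58.0 CPM against 478 and 69.1 CPM, did not pass either, although Lair1 did in 3 of 16 alternatives. Bcl2, a survival factor of Ly6C-low monocytes, stood at 11.5 ± 3.13 CPM against 24.5 ± 9.23 CPM and just missed (adjusted p = 0.0503), but passed in 8 of 16 alternatives. S1pr5 had no count, and Apoc2, of whose exon bases 79.5% are shared with another gene, had 4.

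Most regulators of the switch from classical to nonclassical monocytes did not pass the threshold, and the 2 that did differed by little. Of 13 tested, 2 rose and 0 fell (also with DESeq2 and limma-voom), where 12.3% of all genes tested were called in either direction by edgeR. At an unadjusted p under 0.05 it was 4 against 0, and the median was 0.17. Irf8, a factor of monocyte commitment, rose by 0.37 on the log2 scale, at 343, 358 and 357 CPM against 287, 269 and 262 CPM. Rbpj, the nuclear effector of Notch, rose by 0.51, to 204 ± 20.8 CPM from 143 ± 12.3 CPM. Notch2 itself was not called at 24.6 ± 4.28 CPM against 29.1 ± 2.20 CPM, and the Notch target Hes1 had 6 counts, all in 1 Ly6Chi-derived library. Klf2 and Klf4 were low in both groups, with log2 fold changes of 0.66 ± 0.51 and -0.32 ± 0.46 (SE). Cebpb, which acts upstream of Nr4a1 in these monocytes, had 12 counts in TpMo-derived and 10 in Ly6Chi-derived libraries in all and could not be tested. Of its exon bases, 20.7% are shared with Tmem189, where reads were not counted. Macrophages are known to express Cebpb, and whether these few counts come from the cells or from the library or counting steps was not tested. Spi1, Tcf7l2 and Bcl6, those of highest CPM in the list that did not pass, had log2 fold changes of 0.17, 0.11 and -0.05.

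Among classical monocyte genes, 2 of 12 tested were higher and 2 lower, against 6.54% and 5.79% of all genes tested, with a median of 0.32. Ms4a4c and the factor XIII subunit gene F13a1 rose, with log2 fold changes of 3.68 ± 0.31 and 1.85 ± 0.39 (SE). The collagenase Mmp8 and the lectin receptor Clec4e fell, with log2 fold changes of -0.94 and -0.48, and the Clec4e call was lost without TpMo-derived replicate 1 or 3 or Ly6Chi-derived replicate 3. Lyz1 stood at 164 against 148 CPM, Fn1 at 6.68 against 9.30 CPM and F10 at 3.29 against 8.79 CPM, and none of them passed. F10 passed as lower in 5 of 16 alternatives, among them DESeq2 and limma-voom, which each called 2 genes of the list higher and 3 lower. Ly6c2 held 18 counts in TpMo-derived and 2 in Ly6Chi-derived libraries in all and was too low to test.

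Partners and relatives of the surface members mostly passed no threshold. Tyrobp, which encodes the adaptor DAP12 that receptors of the TREM family use, stood at 176 ± 16.9 CPM against 166 ± 22.4 CPM, and the adaptor Fcer1g at 226 ± 16.4 CPM against 191 ± 26.0 CPM, without passing. Of 12 adaptors and relatives of Treml4 and Cd300e tested, 0 rose and 2 fell, against 6.54% and 5.79% of all genes tested. DESeq2 gave 0 and 3 and limma-voom 0 and 2, with 2 higher and 3 lower at an unadjusted p under 0.05. The 2 that fell in edgeR were Trem1 and Cd300ld, with log2 fold changes of -3.68 and -0.98. Trem2, Cd300lb and Cd300a, those of highest CPM (not scaled by length) that did not pass, stood at 748, 565 and 284 CPM against 746, 556 and 332 CPM. Cd300a passed as lower in 2 of 16 alternatives. Treml2, of the same family as Treml4, stood at 4.36, 8.46 and 2.95 CPM against 0.545, 3.37 and 0.497 CPM without a call, but was higher without Ly6Chi-derived replicate 2 (adjusted p = 0.0183). Treml1, the platelet member of the family, was not called at 2.41 against 1.71 CPM. Of 6 partners of CD43, Siglec1, which binds sialylated CD43 on other cells, rose by 2.37 and 0 fell in edgeR, against 6.54% higher and 5.79% lower of all genes tested. With DESeq2, with limma-voom and at an unadjusted p under 0.05, 1 of these partners fell. The linkers Msn, Rdx and Ezr, which join CD43 to actin, had log2 fold changes of -0.20, -0.21 and -0.15 and did not pass, although Msn passed in 6 of 16 alternatives. The adhesion ligand Icam1 was not called at 97.1 against 92.7 CPM.

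**Figure D3:**
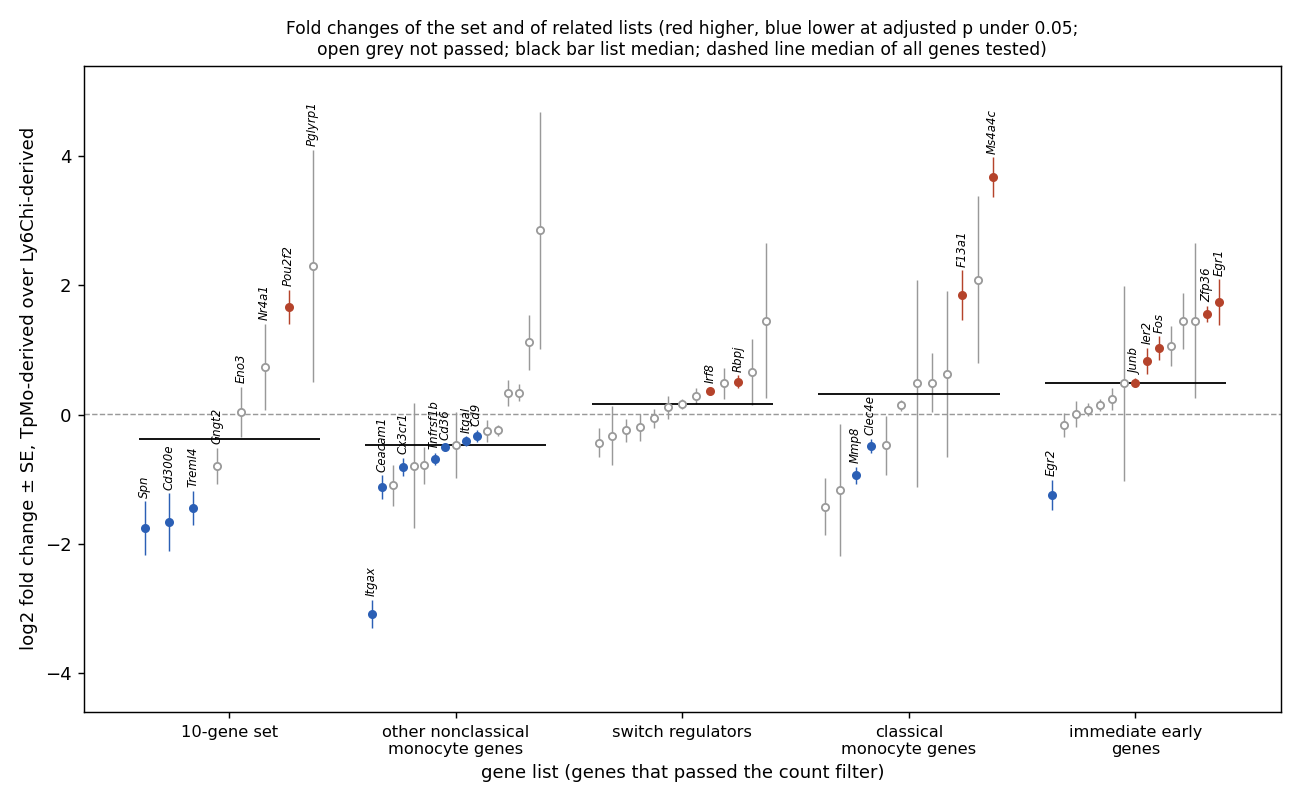
Log2 fold change, TpMo-derived over Ly6Chi-derived, with its SE, for each gene that passed the count filter in the 10-gene set and 4 related lists. Red and blue mark genes called higher and lower, open grey those that did not pass, black bars list medians and the dashed line the median of all genes tested. The medians of the set and of the other nonclassical monocyte genes were -0.37 and -0.47, and those of the switch regulators, classical monocyte genes and immediate early genes were 0.17, 0.32 and 0.50.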

How the data were processed

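RNA from 6 macrophage cultures was sequenced as paired reads of 51 bases from SMART-seq v2 libraries, per the labels' protocols. The authors deposited raw counts per gene. Per the file header, featureCounts 1.6.3 counted reads over GENCODE M22 exons with no option for pairs, strand, multi-mapped or overlapping reads, so by its defaults mates counted separately, strand was ignored, and reads on several genes or places were dropped. STAR (version not given in the sources used here) and GRCm38 come from the submitters' processing notes. Symbols came from GENCODE M21 by gene identifier (55394 of 55487 matched), and promoter sequences from RefSeq (GRCm38.p6).

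Genes were tested on the counts with edgeR 4.0.16 in R 4.3.3 (filterByExpr at its defaults, 10 for the count and 15 for the total, TMM scaling, robust quasi-likelihood test), with Benjamini-Hochberg adjustment over 13140 genes. SE is the absolute log2 fold change divided by the square root of F. CPM used TMM-scaled totals over the genes tested. Fits with DESeq2 1.42.0, limma-voom in limma 3.58.1, other scalings and filters, and each library left out were run as alternatives, and halved counts were added after the data had been seen. Scripts were tested on simulated data. Replicates were numbered in accession order. The labels name no animal or culture of origin, so p-values reflect the spread among these 6 libraries alone, part of which may be technical. No library was a copy of another: within groups, the chi-square of counts per degree of freedom was 20.6 to 33.8.

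The 10 genes and all lists were chosen with earlier results of these data known. The share of all genes with an unadjusted p under 0.05 was not counted, so such counts for the lists have no share to be set against. Named were all 10 genes, and from each list up to 6 changed genes with the smallest p and up to 3 of highest mean CPM that did not pass, with family members whatever their values. Other list genes were chosen after their values had been seen. They were named for a count of 0, a low count, a count of changed genes above 6 or a role in the switch. Some were named for a value near the threshold or against the rest of their list. Some list genes are not reported here.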

Additional observations from a re-analysis of the deposited data

How the results depend on the processing

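Across 16 alternatives, Treml4 stayed lower and Pou2f2 higher past the threshold in all, and no called gene of the 10 changed direction. Spn was lost in 5 of 16 and Cd300e in 6 of 16. Both were lost at an adjusted p under 0.01 (log2 fold changes of -1.76 and -1.66 as before), which left 1 gene of the 10 lower and 785 changed genes in all, against 3 and 1620. With 1 library left out, the number lower among the 10 was 1 to 3, being 1 without TpMo-derived replicate 1 or 3 or Ly6Chi-derived replicate 1 or 3. The changed genes numbered 976 (without Ly6Chi-derived replicate 2) to 1492, and were 1074 when TpMo-derived replicate 3 was left out, 1058 for Ly6Chi-derived replicate 1 and 1062 for its replicate 3. DESeq2 called 2364 genes, and its count of lower genes was 1165 against 761. Nr4a1, Eno3, Pglyrp1 and Gngt2 did not pass in any alternative that tested them, nor did Ace in the 6 that tested it. Pglyrp1 and Ace each had reads in some libraries of a group and none in others, and Ear2 had none, so that no direction is given for them. No paired analysis was possible because the labels give no replicate numbers.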
